A study of Homo sapiens with 1 sample.

Results

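Contractile progenitors with little WLS RNA were examined in 1 droplet library of human embryonic stem cells differentiated toward neural progenitors. A kept cell was a member when the UMIs (unique molecular identifiers, each standing for 1 captured RNA molecule) of ANXA1, TFPI2 and CTGF summed to 5 or more per 10000 UMIs of the cell and fewer than 3 of its UMIs came from WLS. By this rule, 1154 of the 13736 kept cells were members, or 8.40% (exact binomial 95% interval 7.94 to 8.88%). The same summed level was reached by a further 343 kept cells with 3 or more WLS UMIs, and 12239 kept cells lay below it. These intervals, and all others given for UMIs, cover counting error only.

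The library was labeled hHAR123, genotype WT, and came from the H9 line, a widely used human embryonic stem cell line. Cells were grown in N2 medium with the BMP receptor inhibitor Dorsomorphin and the TGF-beta receptor inhibitor SB431542, first as colonies with Rock inhibitor and then as floating embryoid bodies, and were next replated on Matrigel without the inhibitors. They were collected just before neural rosettes are picked, and 2 independent clones of the genotype were pooled before loading. All values here therefore come from 1 library of 1 line, with no replicate, so no test was run, and no library of another genotype was analysed here.

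As background, cells under mechanical tension assemble actin and myosin into stress fibers, and this state is read out by the transcriptional coactivators YAP and TAZ, which act with TEAD factors, and by serum response factor (SRF) with its actin-sensing cofactors. CTGF (now CCN2) and ANKRD1 are classic YAP and TAZ targets, whereas TAGLN, ACTC1 and TPM1 are classic SRF targets. WLS carries WNT proteins to the cell surface, and in the developing telencephalon it marks WNT-secreting tissue such as the dorsal midline.

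The library held 14726 barcodes, all different and with 1 suffix, so cells could not be traced to a loading well or clone. The members were deeply covered, with a median of 45233 UMIs and 7794 genes per cell, against 16983 UMIs and 5427 genes in the cells below the limit and 60421 UMIs and 8486 genes in the cells with 3 or more WLS UMIs. They made up 17.5% of all kept UMIs. Mitochondrial genes gave a median of 5.15% of UMIs in the members and 5.18% in the cells below the limit, and the median doublet score (Scrublet) was 0.0743 and 0.0831. Because of the gap in depth, each cell was thinned at random to 5000 UMIs before levels were compared, which left 1153 members, 343 cells with 3 or more WLS UMIs and 12225 cells below the limit. At this depth, the members had a median of 2475 genes and the cells below the limit 2600. Levels are given as CPM (UMIs per 1000000 thinned UMIs of the group). As a rough measure of free RNA, 109 cells with STMN2, a neuronal gene, at 5 or more UMIs per 10000 were also read, with a median of 13101 UMIs. They were taken from the cells below the limit, so a low level of contractile RNA in them was partly set by this choice. Their own RNA was not told apart from free RNA.

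The genes of the rule are what chose the cells, and their values are a description. CTGF was found in 98.96% of the members, at a median of 9.40 per 10000 UMIs, TFPI2 in 90.3% at 3.10 and ANXA1 in 86.7% at 3.37. All 3 genes were found together in 941 members, and CTGF alone reached the limit in 874 of all 1154 members (75.7%). WLS was at 0 UMIs in 888 members, at 1 in 173 and at 2 in 93. The summed level had no gap at the limit. Of the kept cells with fewer than 3 WLS UMIs, 80 lay from 4 to below 5 per 10000 and 60 from 5 to below 6, and the cells just inside were much like those just outside. TAGLN stood at 3733 CPM just inside and 3152 CPM just outside, and ANKRD1 at 310 and 232 CPM. The members are thus the upper range of a score cut at a limit, and whether the cells just outside belong with them was not tested.

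**Figure D1:**
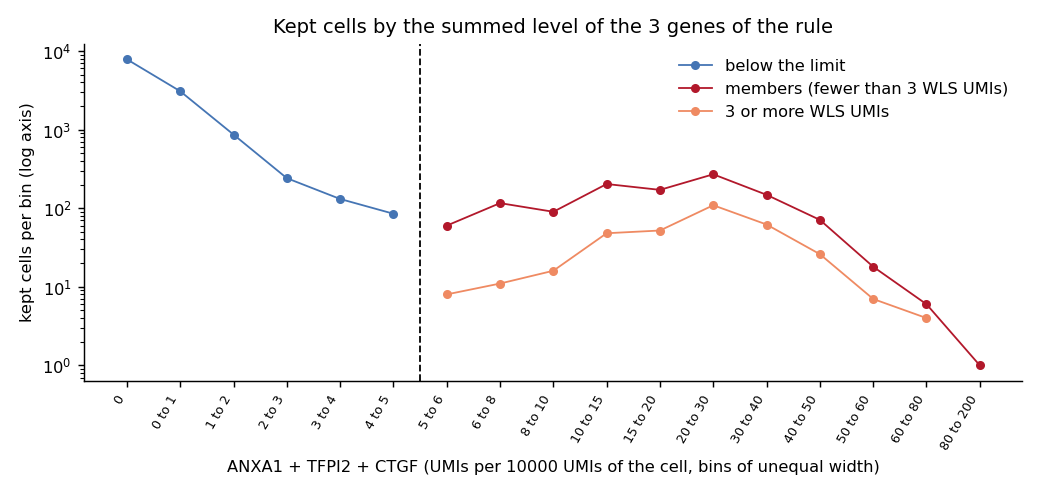
Number of kept cells (log axis) in each bin of the summed ANXA1, TFPI2 and CTGF level (UMIs per 10000 UMIs of the cell, bins of unequal width), with members, cells with 3 or more WLS UMIs and cells below the limit as separate lines and the limit of 5 as a dashed line. Below the limit, 85 kept cells lay from 4 to below 5 per 10000, and 60 members lay from 5 to below 6.

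The 4 markers outside the rule were high in these cells, but they were given together with the name of the group. Both were chosen with earlier results of these data known. Their level therefore does not bear out the name contractile progenitors, which is used here as a label only. TAGLN, an actin-binding protein of smooth muscle and stress fibers, stood at 5208 CPM in the members (95% interval 5150 to 5268) and 306 CPM in the cells below the limit. It was found in 100% of the members before thinning, with quartiles of 15 and 35 UMIs per thinned cell around a median of 24. ANKRD1, a stretch-induced nuclear and sarcomeric protein, stood at 1328 and 15.2 CPM, with a median of 5 UMIs per thinned member. NPPB, the precursor of the B-type natriuretic peptide, stood at 432 and 3.96 CPM, and a median thinned member held 1 UMI of it. ACTC1, the cardiac alpha-actin, stood at 342 and 8.43 CPM, with a median of 0 UMIs, and was found in 41.6% of the thinned members. Before thinning, ANKRD1 was found in 97.7% of the members, NPPB in 76.8% and ACTC1 in 72.5%. The same shares were 14.2, 4.85 and 8.96% in the cells below the limit and 19.3, 4.59 and 12.8% in the STMN2 cells. The latter give a rough background from free RNA, limited by how those cells were chosen. Since depth differed between these groups, the shares were also read after thinning, where ANKRD1 was found in 90.4, 5.21 and 5.56%, NPPB in 50.6, 1.59 and 1.85% and ACTC1 in 41.6, 2.87 and 3.70% of the members, the cells below the limit and the STMN2 cells.

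Several defining markers of other contractile or mesodermal lineages were at or near 0, while other genes of the same lists were detected. Of the 10 genes listed for mature smooth muscle, 3 reached a level that was counted (a mean of 10 CPM over the 2 groups). CNN1 and ACTA2 were 12.01-fold and 7.52-fold higher than in the cells below the limit, and 3.10-fold and 2.26-fold with cells matched for depth, whereas NOTCH3 was 0.81 times their level. LMOD1, a smooth muscle leiomodin that was not counted, stood at 12.3 and 4.84 CPM, and at 11.1 CPM in the STMN2 cells. The defining smooth muscle genes MYH11 and DES stood at 1.04 and 0 CPM, and DES had 3 UMIs over all members before thinning. Of the 16 cardiac and mesoderm genes, 2 were counted and went opposite ways. The calcium release channel RYR2 stood at 16.8 CPM in the members and 4.99 CPM below the limit (3.37-fold, and 1.59-fold at matched depth), but at 37.0 CPM in the STMN2 cells, and the sarcomere protein TTN stood at 6.07 and 15.2 CPM. TBXT and HAND1 had no UMI in any member, and TNNT2 stood at 4.16 CPM. From the 11 neural crest genes, FOXD3 had no UMI, SOX10 stood at 0.35 CPM and TFAP2A had 4 UMIs over all members before thinning, whereas ETS1, also a gene of other lineages, stood at 26.9 CPM against 0.39 CPM (68.5-fold, and 4.18-fold at matched depth). Among the 21 mesenchymal genes, DCN had no UMI, TWIST1 stood at 1.91 CPM and PDGFRA at 1.74 CPM, and the list was led by VIM and CDH2, which neural progenitors also express. Of its 6 counted genes, VIM was higher and 5 were within 2-fold, namely CDH2, the cadherin CDH11 (222 and 270.5 CPM), the transcription factors ZEB1 (151 and 248 CPM) and ZEB2 (89.0 and 59.8 CPM) and the surface protein THY1 (27.8 and 29.7 CPM). Genes under the filter included PDGFRB (13.2 and 2.68 CPM), PRRX1 (12.1 and 6.67 CPM), FOXC2 (11.3 and 0.31 CPM) and SNAI2 (11.1 and 2.31 CPM). Epithelial and amnion genes were not scarce, with a summed level of 790 CPM in the members and 194.5 CPM below the limit over 16 genes. Of the 4 that were counted, 3 were higher, namely the tight junction protein CLDN6 (133 and 13.2 CPM, 10.1-fold, and 4.54-fold at matched depth) and the keratins KRT18 (4.97-fold and 2.11-fold) and KRT8 (3.89-fold and 2.06-fold), whereas KRT19 was at 20.8 and 32.4 CPM, and GABRP and KRT5 had 0 UMIs. Their part in the other results was not tested. Endoderm markers SOX17 and FOXA2 had no UMI in any member. Progenitor and forebrain genes were read against the STMN2 cells at equal depth. SIX3, a factor of the anterior forebrain and eye field, was found in 60.5% of the thinned members and 38.0% of the thinned STMN2 cells, at 216 and 148 CPM. SOX2, the pan-neural progenitor factor, was found in 43.0 and 30.6%, but stood at 130 CPM (95% interval 120 to 139) and 156 CPM (124 to 193), so no order was read for it and its level in the members was not told apart from that in the STMN2 cells. Before thinning, the shares were 97.9 and 56.0% for SIX3 and 93.1 and 47.7% for SOX2.

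**Figure D2:**
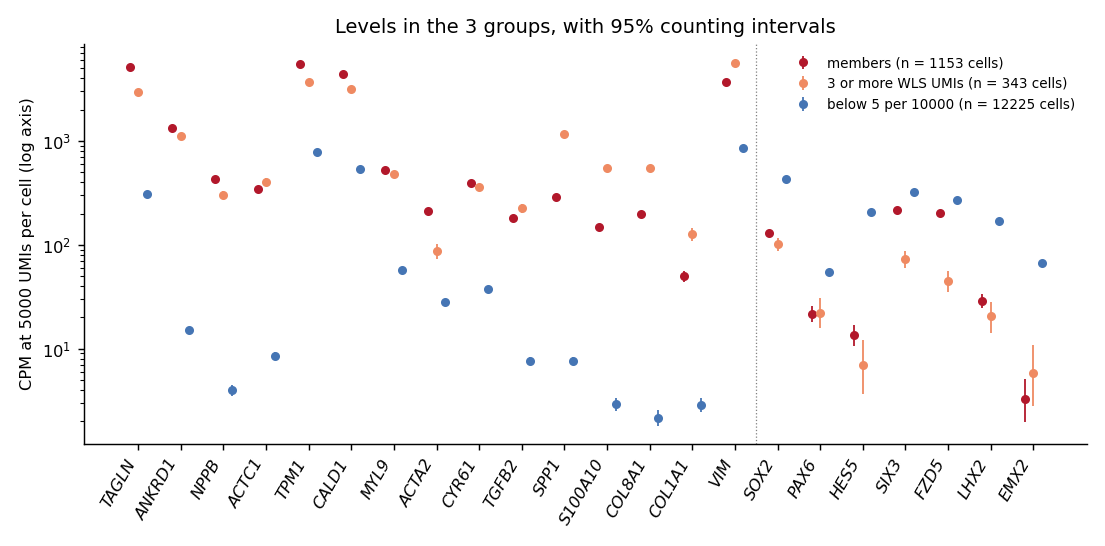
Levels of selected genes (CPM at 5000 UMIs per cell, log axis) in the members, the cells with 3 or more WLS UMIs and the cells below the limit, with exact Poisson 95% intervals as bars. To the left of the dotted line, the contractile, secreted and matrix genes and VIM were higher in the members than below the limit (TAGLN 5208 against 306 CPM). To the right of it, the progenitor and forebrain genes drawn were lower (SOX2 130 against 427 CPM). VIM is also in the neural progenitor list, and NES, another higher gene of that list, is not drawn.

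Promoters of 3 of the leading genes are shown because the data bear on YAP and SRF targets, and these were chosen because they hold a motif. Each is the 250 bases before an annotated start from RefSeq (GRCh38.p14), read 5′ to 3′ on the strand of the gene. Capitals mark GGAATG, the core of the TEAD site, on either strand, and in ACTC1 the CArG box, the SRF site. The CArG box was read in its strict form alone, CC and GG with only A or T between them. The windows are CTGF at chr6:131951373-131951622 on the minus strand, ANKRD1 at chr10:90921088-90921337 on the minus strand and the first of 3 ACTC1 windows at chr15:34795550-34795799 on the minus strand.
CTGF: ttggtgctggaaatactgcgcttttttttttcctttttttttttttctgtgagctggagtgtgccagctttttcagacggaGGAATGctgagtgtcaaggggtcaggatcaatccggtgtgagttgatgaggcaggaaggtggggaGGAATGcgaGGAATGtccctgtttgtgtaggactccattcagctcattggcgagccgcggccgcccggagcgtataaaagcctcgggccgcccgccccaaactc
ANKRD1: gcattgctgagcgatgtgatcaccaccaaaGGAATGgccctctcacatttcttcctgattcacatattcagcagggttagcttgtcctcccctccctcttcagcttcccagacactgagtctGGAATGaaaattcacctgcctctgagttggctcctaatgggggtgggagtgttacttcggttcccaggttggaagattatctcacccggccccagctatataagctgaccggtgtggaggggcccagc
ACTC1: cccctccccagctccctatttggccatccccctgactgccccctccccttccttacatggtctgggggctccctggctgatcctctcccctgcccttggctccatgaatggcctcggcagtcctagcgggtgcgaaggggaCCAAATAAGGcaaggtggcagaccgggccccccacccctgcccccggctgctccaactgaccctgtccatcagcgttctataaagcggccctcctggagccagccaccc
CTGF, a gene of the rule, held GGAATG 3 times and ANKRD1 held it 2 times, and the CArG box of ACTC1 began 109 bases before the start. Among the other windows read, those of TPM1, CNN1 and ACTA2 held no CArG box of this strict form. Looser forms that SRF can also bind were not searched for, so SRF sites may be present in these windows. Those of ANXA1 and TFPI2, genes of the rule, held neither GGAATG, strict CArG box nor TGACTCA, which says only that these letters are not in these windows. Promoters of TAGLN, NPPB, CYR61, COL1A1 and MYL9 are named only. The shares that follow were read on longer windows, which also held a short stretch after the start. Over all counted genes with a promoter in the table (8047 of 9847), 14.9% held GGAATG in at least 1 window. The share was 24.4% among genes at least 2-fold higher in the members than below the limit (125 of 513) and 15.4% among those at least 2-fold lower (125 of 812). TGACTCA, the AP-1 site, was held by 10.5% of the higher, 3.82% of the lower and 4.37% of all counted genes, and the CArG box by 4.87, 2.46 and 1.65%. Among the genes at least 10-fold higher (75 with a promoter), 19 (25.3%) held GGAATG, 9 held TGACTCA and 1 (1.33%) held the CArG box. Windows per gene differed, at 1.72 for the higher genes and 1.49 for all, and per window GGAATG was in 15.9% and 11.3%. A match describes letters in these windows and not a site in use.

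Against the cells below the limit, the members had more RNA of many cytoskeletal, secreted and matrix genes. They had less of 8 of 12 counted forebrain genes (18 listed) and of 11 of 19 counted neural progenitor genes. The comparison was of cells chosen on RNA of the same library, so its values are a description without a test. Of 9847 counted genes, 649 (6.59%) were at least 2-fold higher in the members and 1067 (10.8%) at least 2-fold lower, and 107 and 23 were 10-fold higher and lower. The median ratio over all counted genes was 0.897. Since a gene was counted by its mean over both groups, some genes were counted only through their level in the members. Others were counted only through their level below the limit. For both kinds the direction was fixed by the filter, and the counts and medians of lists below are descriptions of the counted genes alone. These ratios compare shares of a cell's RNA. Counted as UMIs per cell, with no correction for depth, 5739 genes were at least 2-fold higher and 148 lower, SOX2 was at 0.73 times and SIX3 at 1.57 times the level below the limit. The size of these ratios depended on which cells stood on the other side. When the cells below the limit were weighted to the depth of the members without thinning (10 bins of equal numbers of members), 355 genes (3.61%) were at least 2-fold higher and 678 (6.89%) lower, and TAGLN was 3.85-fold rather than 17.0-fold higher. The deepest bin then held 14 cells below the limit. The 267 cells below the limit that were at least as deep as the median member had TAGLN at 1431 CPM, ANKRD1 at 80.9 CPM and SOX2 at 324 CPM, and a median doublet score of 0.144. In the 9884 shallowest cells below the limit, the values were 196, 9.85 and 437 CPM and 0.0794. How far cells of mixed content entered these deep cells was not tested. Where 2 ratios are given below, the second is this depth-matched one.

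Genes of the actin and myosin cytoskeleton, the longest list, gave the largest number of higher genes, though not the largest share. Of 37 counted genes (44 listed), 30 were at least 2-fold higher in the members, 2 were lower and the median ratio was 3.53, with 20 higher, 1 lower and a median of 2.08 at matched depth. TPM1, a tropomyosin that stabilizes actin filaments, stood at 5470 CPM in the members and 789 CPM below the limit (6.94-fold, 95% interval 6.84 to 7.04, and 2.54-fold at matched depth). CALD1, caldesmon, stood at 4440 and 542 CPM (8.19-fold and 3.46-fold), and MYL9, a myosin regulatory light chain, at 527 and 57.0 CPM (9.24-fold and 2.56-fold). The filament cross-linker FLNC was 20.6-fold and 4.71-fold higher. The abundant cytoplasmic actins ACTB and ACTG1 differed less, at 2.27-fold and 2.45-fold, or 1.65-fold and 1.74-fold at matched depth. MYLK, myosin light chain kinase, went the other way, at 22.0 CPM in the members and 56.1 CPM below the limit, as did the slow skeletal troponin TNNT1, at 12.8 and 29.2 CPM. Of 15 counted SRF targets, 13 were higher and none was lower, with a median ratio of 7.52 (10 higher and a median of 2.54 at matched depth), but the list shares TAGLN, TPM1, MYL9 and other genes with the cytoskeletal list.

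YAP and TAZ targets other than CTGF were higher in 12 of 18 counted genes (22 listed) and lower in none, at a median ratio of 2.97 (8 of 18 and a median of 1.68 at matched depth). ANKRD1 led them at 87.4-fold (interval 81.6 to 93.6) and 15.1-fold. CYR61 (now CCN1), a matricellular protein, was at 397 and 37.6 CPM (10.6-fold and 3.84-fold), CRIM1, a transmembrane BMP antagonist, at 629 and 42.9 CPM (14.7-fold and 4.15-fold), and TGFB2, the TGF-beta 2 ligand, at 180 and 7.58 CPM (23.8-fold and 11.6-fold). The lowest of the list was AMOTL1, a YAP-binding scaffold, at 45.6 and 62.3 CPM. Their regulators differed less. YAP1 itself stood at 111 CPM in the members and 116 CPM below the limit, and TEAD1, a DNA-binding partner, at 336 and 240 CPM, whereas WWTR1, which encodes TAZ, stood at 84.3 and 35.5 CPM (2.38-fold, but within 2-fold at matched depth). Of 18 counted genes of the Hippo pathway, 6 were higher and none lower at a median ratio of 1.15, and at matched depth FRMD6, an upstream scaffold, remained as the 1 gene past 2-fold (4.50-fold).

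Secreted factors of vascular and wound responses were also higher. Without the genes of the rule, 12 of the 21 listed genes were counted, all 12 of them at least 2-fold higher at a median ratio of 10.7, against 9 and a median of 4.77 at matched depth. Among these, NPPB, EDN1 and SPP1 lay under 10 CPM below the limit and were counted through their level in the members, so for such genes a higher level was fixed by the filter. NPPB was 109-fold higher (interval 95.5 to 125, and 45.1-fold at matched depth). EDN1, the vasoconstrictor endothelin-1, stood at 306 and 5.73 CPM (53.5-fold and 11.3-fold). The phosphoprotein SPP1, osteopontin, stood at 291 and 7.64 CPM (38.1-fold and 7.48-fold). Outside the lists, the cytokine IL11 was at 64.3 and 0.77 CPM, the corticotropin-releasing hormone binding protein CRHBP at 32.4 and 0.41 CPM, the microfibril protein MFAP5 at 68.5 and 0.87 CPM, the BMP antagonist GREM1 at 92.5 and 1.32 CPM, and the cell cycle inhibitor CDKN2B at 30.7 and 0.47 CPM. All 5 were among the 12 genes with the largest ratios after thinning, at 64.7-fold to 83.7-fold. At matched depth they were lower, at 30.6-fold for IL11, 31.8-fold for CRHBP, 21.7-fold for MFAP5, 16.8-fold for GREM1 and 7.88-fold for CDKN2B.

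Annexins and S100 proteins, which bind calcium and membranes, were higher in 7 of 12 counted genes (13 listed) and lower in none, leaving out ANXA1 (median ratio 2.56, against 6 higher and a median of 1.95 at matched depth), with ANXA2 at 419 and 28.0 CPM (14.98-fold and 4.78-fold) and S100A10 at 147 and 2.91 CPM (50.5-fold and 6.59-fold), and ANXA6 nearly level at 25.5 and 24.3 CPM. Among 15 counted collagen chains of 18, 8 were higher and 3 lower, against 6 and 2 at matched depth. COL8A1, a short-chain collagen, was 91.6-fold higher (198 and 2.16 CPM), though 8.72-fold at matched depth. The fibrillar chain COL11A1 stood at 985 and 194 CPM (5.08-fold and 2.13-fold) and COL1A1 at 49.6 and 2.88 CPM (17.2-fold and 11.3-fold). The basement membrane chain COL4A6 was lower, at 82.9 and 226 CPM, as was the laminin chain LAMA1, at 36.1 and 102 CPM. In the list of matrix and adhesion genes, 14 of 23 counted (27 listed) were higher and 1 lower at a median ratio of 2.72, against 10, 1 and 1.88 at matched depth. CAVIN1, which shapes caveolae, stood at 132 and 2.37 CPM (55.5-fold and 10.3-fold) and the integrin chain ITGB1 at 671 and 247 CPM. Of 15 counted genes of TGF-beta and BMP signaling, 7 were higher, namely TGFB2, BMP4, FST, PMEPA1, TGFB1, ID1 and SKIL (5 genes at matched depth). The BMP-induced gene ID2 was the 1 that was lower (36.2 and 110 CPM), whereas the BMP target ID3 was near level at 183 and 151 CPM.

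**Figure D3:**
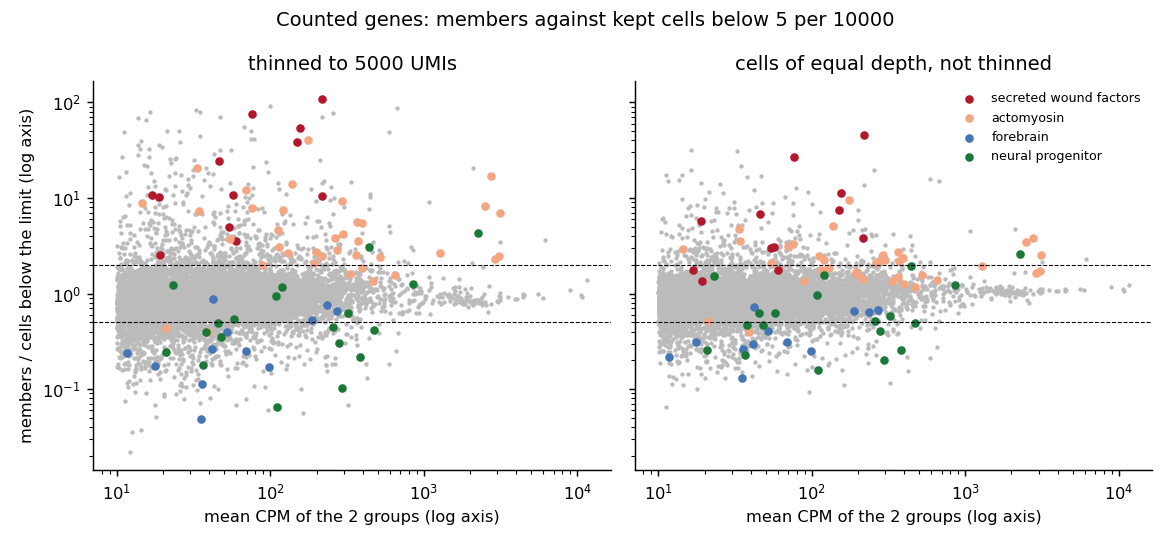
Ratio of members over cells below the limit (log axis) against the mean CPM of both groups (log axis) for the counted genes, with 4 gene lists in color and dashed lines at 2-fold, after thinning (left) and with depth-matched cells (right). After thinning, all 12 secreted wound factors and 30 of 37 actomyosin genes were at least 2-fold higher, 8 of 12 forebrain and 11 of 19 neural progenitor genes at least 2-fold lower, and the exceptions include VIM and NES above and MYLK and TNNT1 below.

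Genes of neural progenitors were lower in 11 of 19 counted cases (20 listed) and higher in 2, at a median ratio of 0.448, with 9 lower, 1 higher and a median of 0.520 at matched depth. The summed level of the 20 listed genes went the other way, at 6692 CPM in the members and 5665 CPM below the limit, since it is dominated by the abundant VIM. HES5, a Notch effector, showed the lowest ratio of the list, at 13.5 CPM in the members and 207 CPM below the limit (0.065, interval 0.052 to 0.082, and 0.16 at matched depth). FABP7, the brain lipid-binding protein of radial glia, stood at 54.6 and 532 CPM (0.10 and 0.20), SOX2 at 130 and 427 CPM (0.30 and 0.40) and PAX6, a factor of dorsal progenitors and the eye field, at 21.5 and 54.5 CPM. The 2 exceptions were intermediate filament genes, VIM at 3661 and 860 CPM (4.26-fold and 2.61-fold) and NES at 666 and 218 CPM (3.05-fold and 1.92-fold). The neural cadherin CDH2 was at 946 and 758 CPM.

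Forebrain patterning genes were lower to unequal degrees. Of 12 counted genes (18 listed), 8 were at least 2-fold lower in the members, none was higher and the median ratio was 0.257, against 8 lower and 0.311 at matched depth. The dorsal telencephalic factor EMX2 was at 3.30 and 66.9 CPM (0.049, interval 0.030 to 0.077, and 0.13 at matched depth), FEZF2 at 7.29 and 64.3 CPM (0.11 and 0.26), LHX2, which specifies cortex, at 29.0 and 168 CPM, and OTX2 at 27.6 and 110 CPM. EMX2 and FEZF2 lay under 10 CPM in the members and were counted through their level below the limit, so for such genes a lower level was fixed by the filter. Among the counted genes within 2-fold were SIX3 (216 and 325 CPM), the WNT receptor FZD5 (201 and 268 CPM) and the optic stalk factor VAX1 (39.2 and 44.9 CPM). Among the other genes with the lowest ratios over all, SMOC1, a secreted BMP modulator, stood at 41.1 and 603 CPM (0.068 and 0.12), PARM1 at 0.52 and 23.9 CPM, the lipid phosphatase-related PLPPR1 at 2.25 and 33.4 CPM, the transcriptional coactivator EYA4 at 7.63 and 111 CPM, and VIPR2, the receptor for vasoactive intestinal peptide, at 4.68 and 65.1 CPM. The noncoding RNAs AC022639.1 (17.5 and 308 CPM), LINC01830 (11.1 and 182 CPM) and MIR217HG (1.74 and 34.0 CPM) were also in that group, together with AC125613.1 (0.87 and 24.2 CPM) and AC096570.1 (1.04 and 27.8 CPM). The ratios of these 10 genes were 0.022 to 0.072 after thinning and 0.093 to 0.17 at matched depth. For those of them under 10 CPM in the members, a lower level was likewise fixed by the filter.

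Further lists were more mixed. Of 14 counted WNT genes other than WLS, 5 were lower, among them WNT7B (7.46 and 41.2 CPM) and the receptor FZD3 (163 and 386 CPM), and the receptor FZD7 was higher (57.9 and 26.9 CPM). In the pluripotency list, DNMT3B, L1TD1 and SOX2 were lower, LIN28A was level at 223 and 230 CPM, and POU5F1 and NANOG had 6 and 5 UMIs over all members before thinning. The dorsal midline factor ZIC1 was at 78.6 and 424 CPM. Among neuronal genes, GAP43, a growth cone protein, was 8.04-fold higher (117 and 14.6 CPM, and 2.38-fold at matched depth), whereas DCX was at 41.5 and 81.5 CPM and STMN2 at 24.8 and 35.3 CPM. Of 12 counted p53 targets, 4 were higher, among them the cell cycle inhibitor CDKN1A (27.4 and 5.24 CPM, 5.23-fold and 1.51-fold), but 1 at matched depth. Of 14 stress and hypoxia genes, 5 were higher (3 at matched depth), led by ASNS, asparagine synthetase (90.7 and 18.9 CPM, 4.79-fold and 2.18-fold). None of 14 mitotic and none of 14 replication genes was past 2-fold either way, although 2 mitotic genes were at matched depth, among them TOP2A (0.45).

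Within the members, the levels of several contractile genes were higher and those of several forebrain genes lower at higher scores of the rule, a description that uses the genes that chose the cells. From members at 5 to below 10 per 10000 (266 cells) to those at 30 to below 50 (219 cells), ANKRD1 went from 492 to 2314 CPM, NPPB from 88.7 to 794 CPM, ACTC1 from 100.0 to 701 CPM and SPP1 from 52.6 to 510.5 CPM. TAGLN and TPM1 varied less, from 4042 to 5934 CPM and from 4587 to 6272 CPM. The smooth muscle list did not go up with the score, at a sum of 417 and 376 CPM, with ACTA2 at 229 and 205.5 CPM and CNN1 at 110.5 and 123 CPM. TAGLN and TPM1 were already high in the 205 cells at 3 to below 5 per 10000 outside the limit, at 2991 and 3956 CPM, where SPP1 stood at 18.5 CPM and COL1A1 at 2.93 CPM. SIX3 went from 289 to 140 CPM, FZD5 from 286 to 83.1 CPM and SOX2 from 183 to 94.1 CPM between the same bins of members, whereas PAX6 was at 23.3 and 17.4 CPM with overlapping intervals. Depth moved with the score, with medians of 36332 and 53025 UMIs in the 2 bins. With the members divided by depth into 3 equal parts, between the shallowest and the deepest part ANKRD1 was at 967 and 1593 CPM, SIX3 at 253 and 180 CPM, CTGF at 1152 and 1196 CPM and TAGLN at 5510 and 4952 CPM.

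**Figure D4:**
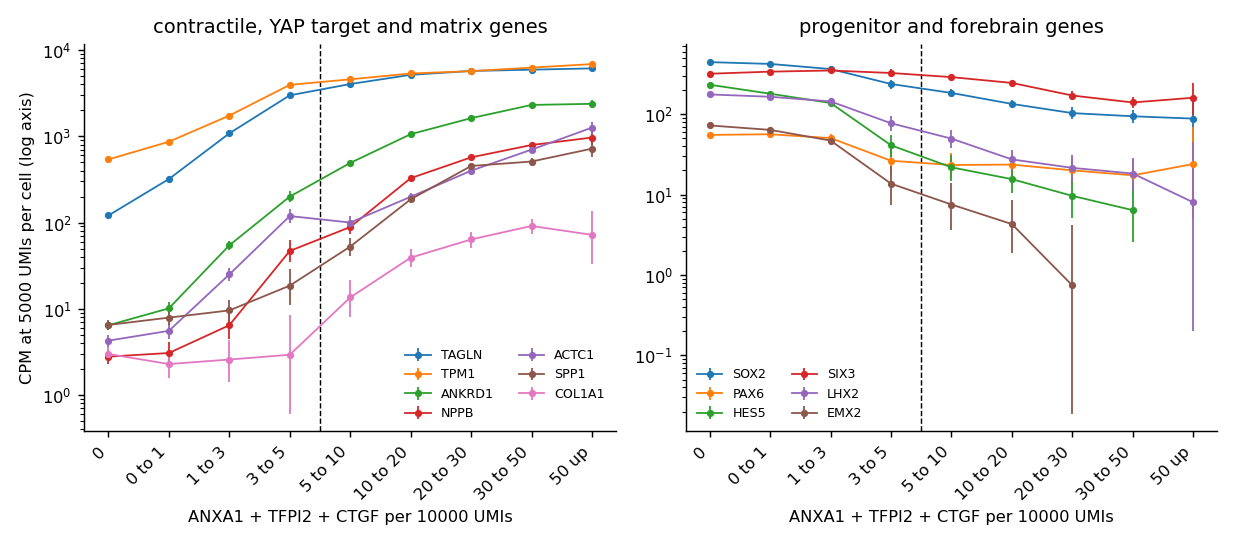
Levels (CPM at 5000 UMIs per cell, log axis, exact Poisson 95% intervals) of contractile, YAP target and matrix genes (left) and progenitor and forebrain genes (right) in kept cells with fewer than 3 WLS UMIs, by bins of the summed ANXA1, TFPI2 and CTGF level, with the limit dashed and levels of 0 not drawn. TAGLN was at 2991 CPM in the bin just outside the limit, and SPP1 went from 52.6 to 510.5 CPM between members at 5 to 10 and those at 30 to 50 per 10000.

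Members with 0, 1 and 2 WLS UMIs also differed, with median depths of 43080, 50420 and 51713 UMIs. SPP1 stood at 204, 445 and 837 CPM in these 3 groups, S100A10 at 98.8, 257 and 402 CPM and COL1A1 at 37.9, 70.5 and 123 CPM. SIX3 stood at 235, 178 and 105 CPM and FZD5 at 225, 142 and 81.7 CPM. ANKRD1 (1292, 1451 and 1445 CPM) and NPPB (434, 399 and 467 CPM) had no such order.

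Since TAGLN was in nearly every thinned member (99.1%), the share of members that held it together with a forebrain gene is set by the latter, at 60.2% for SIX3, and says nothing of how the genes go together. NPPB and ACTC1 shared 26.4% of the thinned members, where the product of their shares is 21.1%. Across the 1153 thinned members, which share 1 library, Spearman's rho was 0.56 for TAGLN with TPM1, 0.46 for ANKRD1 with NPPB, 0.22 for TAGLN with ACTC1, -0.08 for TAGLN with SOX2 and -0.26 for SIX3 with VIM. These are descriptions over cells of sparse counts.

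Mitotic RNA in the members stood differently against the cells below the limit with and without matched depth. The 14 mitotic genes summed to 1801 CPM in the members and 2035 CPM below the limit, with a median ratio of 1.02 after thinning and 0.640 at matched depth. Their sum moved with depth below the limit, from 1633 CPM in the 9884 shallowest cells to 3715 CPM in 2088 cells of middle depth and 3788 CPM in the 267 deepest, and in the members from 1073 CPM in the shallowest of the 3 parts to 2618 CPM in the deepest. CDK1 was at 96.1 and 66.6 CPM (1.44-fold and 0.85-fold), TPX2 at 238 and 214 CPM (1.11-fold and 0.68-fold) and TOP2A at 196 and 303 CPM (0.65-fold and 0.45-fold). By phase calls on the thinned cells, 41.8% of the members were in G2M (95% interval 38.9 to 44.7%), 33.7% in S and 24.5% in G1, against 32.1, 38.3 and 29.6% of the cells below the limit and 8.33, 6.48 and 85.2% of the STMN2 cells. Free RNA enters these calls, and its part was not tested. The summed RNA of the G2M gene list was lower in the members, at 6079 CPM against 6625 CPM below the limit. That of the S gene list was also lower, at 3036 and 3889 CPM. The larger G2M share thus stood beside a lower pooled sum of the G2M list, and what set the share was not tested. Phase shares were not read at matched depth. Within each phase, TAGLN was 18.5-fold higher in G1, 17.9-fold in S and 14.9-fold in G2M, and SOX2 stood at 0.29, 0.32 and 0.29 times the level below the limit. The proliferation marker MKI67 stood at 0.87, 0.99 and 0.49 times and TOP2A at 0.64, 0.73 and 0.50 times that level, both lowest within G2M.

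The members were next compared with the cells with 3 or more WLS UMIs, which met the same limit on ANXA1, TFPI2 and CTGF. Because the WLS limit is on UMIs and not on their share, shallow cells with a like share of WLS could fall among the members. The median WLS level of the cells with 3 or more WLS UMIs was 1.16 per 10000 UMIs. A WLS limit per 10000 was not tried for this comparison. Of 9433 counted genes, 191 (2.02%) were at least 2-fold higher in the members and 291 (3.08%) at least 2-fold lower, 5.11% together, with a median ratio of 1.02. Here too, genes under 10 CPM in 1 group were counted through their level in the other, which fixed their direction. At matched depth the counts were 106 (1.12%) and 228 (2.42%). The shallowest depth bins then held few cells with 3 or more WLS UMIs, at 5, 9 and 13 cells, so matched values of this comparison lean on few cells. None of the 4 contractile markers outside the rule was past 2-fold, with TAGLN at 5208 CPM in the members and 2961 CPM in these cells, ANKRD1 at 1328 and 1125 CPM, NPPB at 432 and 304 CPM and ACTC1 at 342 and 404 CPM. ACTA2, smooth muscle actin, was 2.47-fold higher in the members (214 and 86.3 CPM). Of 4 counted genes of the smooth muscle list, ACTA2 was the 1 higher gene, and MYOCD was lower at a ratio of 0.017. At matched depth 2 were higher and 1 lower.

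Among lists with at least 5 counted genes, the forebrain list had the highest median ratio of members over these cells. Of 8 counted genes, 5 were at least 2-fold higher in the members and none lower, at a median ratio of 2.74, and 5 were also higher at matched depth. FZD5 stood at 201 and 44.3 CPM (4.54-fold, interval 3.60 to 5.80, and 2.99-fold at matched depth), FEZF1 at 29.7 and 8.75 CPM, SIX3 at 216 and 72.3 CPM (2.98-fold and 2.75-fold) and VAX1 at 39.2 and 15.7 CPM. LHX2 was at 29.0 and 20.4 CPM. In contrast, SOX2 was at 130 and 101 CPM and PAX6 at 21.5 and 22.2 CPM. Other genes with the largest ratios were L1TD1, an RNA-binding protein of pluripotent cells (39.7 and 2.92 CPM), the zinc finger protein ZNF385B (115 and 9.33 CPM), the receptor tyrosine phosphatase PTPRT (80.8 and 8.75 CPM), the serotonin receptor HTR2C (95.1 and 13.4 CPM), the neuropeptide NMU (23.4 and 3.50 CPM), the teneurin TENM1 (40.6 and 6.41 CPM), CPNE4, a copine (24.98 and 4.08 CPM) and the selenium carrier SELENOP (18.9 and 3.50 CPM). The ratios of these 8 genes were 5.40 to 13.6 after thinning and 3.17 to 10.9 at matched depth. DCX was 3.74-fold higher (41.5 and 11.1 CPM), ZIC1 3.46-fold (78.6 and 22.7 CPM) and LTBP1, a latent TGF-beta binding protein, 2.72-fold (653 and 240 CPM). Each was the only higher gene of its list. Of 4 counted neuronal genes none was lower, and of 3 counted hem and roof plate genes BMP6 was lower. Of 18 counted TGF-beta and BMP genes 5 were lower, namely BMP2, TGFBR2, FST, TGFB1I1 and TGFB1.

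Several matrix genes and 4 S100 genes were lower in the members than in the cells with 3 or more WLS UMIs. NT5E, the ecto-nucleotidase CD73, stood at 1.21 and 41.4 CPM (0.029, and 0.099 at matched depth), the neural factor POU3F2 at 4.16 and 61.2 CPM, the fibrillar collagen COL3A1 at 1.91 and 27.4 CPM, LINC01411 at 2.43 and 29.7 CPM, the calcitonin receptor CALCR at 5.90 and 54.2 CPM, the gene named CPM, which encodes carboxypeptidase M, at 3.64 and 31.5 CPM, and NETO1, a glutamate receptor partner, at 7.11 and 59.5 CPM. Of 16 counted collagens, COL3A1, COL8A1, COL1A1 and COL1A2 were lower and COL9A1 and COL4A6 higher in the members. Of 24 matrix and adhesion genes, 6 were lower and none higher, and at matched depth 3 were lower. SPP1 was at 291 and 1167 CPM, S100A10 at 147 and 543 CPM and S100A11 at 403 and 986 CPM. Of 13 counted annexins and S100 genes, these S100 genes with S100A6 and S100A16 were lower, 8 were within 2-fold and ANXA3 was 2.07-fold higher in the members (1.93-fold at matched depth). Of 15 p53 targets, 7 were lower and none higher, at a median ratio of 0.514, with CDKN1A at 27.4 and 70.5 CPM, and 6 of them were lower at matched depth. VIM was at 3661 and 5633 CPM. No mitotic or replication gene of the lists was past 2-fold between these groups.

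**Figure D5:**
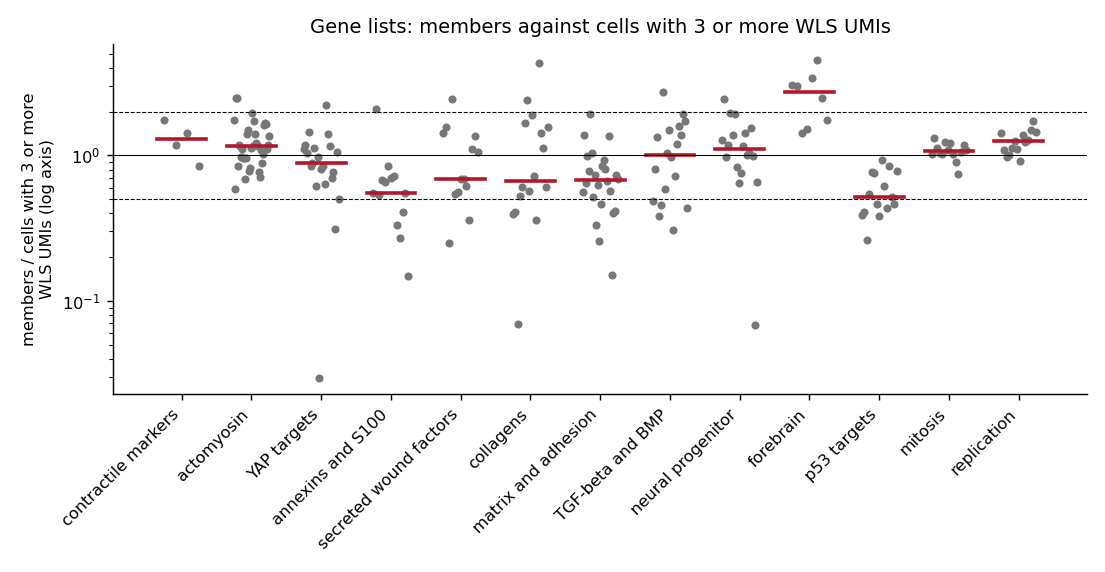
Ratio of members over cells with 3 or more WLS UMIs (log axis) for each counted gene of 13 lists without the genes of the rule, with the median of each list as a red bar and dashed lines at 2-fold. The forebrain list had the highest median (2.74) and the p53 targets the lowest (0.514).

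The gene that holds HAR123, SMG6, and the neighboring gene HIC1 were also read, since the study concerns them. SMG6, a factor of nonsense-mediated RNA decay, stood at 95.2 CPM in the members, 125 CPM below the limit and 110 CPM in the cells with 3 or more WLS UMIs. HIC1, a transcriptional repressor, was near the detection limit of this library, at 1.04, 0.39 and 4.08 CPM, and no difference was read from it.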

How the data were processed

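Cells of 1 library were loaded on a 10x Chromium chip (3′ HT v3.1). The authors deposited raw UMI counts per gene and barcode, made with Cell Ranger 7.0.1 at default settings on GRCh38. The annotation version is not given in the sources used here. Kept cells had 2000 to 10000 genes above 0 and 1 to below 10% mitochondrial UMIs. Counts were thinned without replacement to 5000 per cell (seed 1, numpy 2.4.6), summed per group and given as CPM. Genes with a mean of 10 CPM or more over the 2 groups were counted, and 2-fold was the limit of a call. Intervals were exact (Poisson for levels, binomial for shares and ratios). The thinning and the 2-fold comparison of pooled counts were tested on simulated data. The depth-matched comparison, the phase calls and the motif search were not. Scrublet (scanpy 1.11.5) marked 1 of 14726 barcodes at its threshold of 0.777, too few for a working caller, and no barcode was dropped as a doublet. Phases used the gene lists of Seurat. Named were the given markers, the 12 largest ratios each way against the cells below the limit and the 8 against cells with 3 or more WLS UMIs (50 or more thinned UMIs), up to 4 genes of each of 29 lists (the 2 highest in level, the largest and the smallest ratio) and HIC1, SMG6 and WLS. Other genes in the text were named after their values were seen. Members and lists were chosen with earlier results of these data known. Alternatives changed the depth, the limits, the filters, the fold and the genes of the rule. Genes withheld from the text are not reported here.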

Additional observations from a re-analysis of the deposited data

Results flagged for a closer look

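Barcodes outside the quality limits also met the limits of the rule. Among the 94 barcodes with more than 10000 genes, which had a median of 103907 UMIs, 30 did so (31.9%, exact binomial 95% interval 22.7 to 42.3%), a value noted because these barcodes entered no comparison. A count of 0 among them would have allowed a share of up to 3.19%, and the share among kept cells was 8.40%. Without the WLS limit, 80 of these 94 barcodes reached the summed level, as did 1497 of the 13736 kept cells. Since the WLS limit is on UMIs, it is harder to meet in deeper barcodes. Both limits of the rule were met by 119 of 322 barcodes with under 1% mitochondrial UMIs (37.0%) and 82 of 520 with fewer than 2000 genes (15.8%). They were also met by 68 of 430 with 10% or more mitochondrial UMIs (15.8%), and by 233 of the 990 left out in all (23.5%). Median depths of these 3 kinds of barcode were 6328, 1552 and 3846 UMIs, against 18030 in kept cells. At such depths, very few UMIs of the 3 genes reach the summed level, and the WLS limit is easily met. Their shares therefore cannot be set against the 8.40% of kept cells. The part of doublets, damaged cells or real cells in these shares was not tested.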

How the results depend on the processing

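The share of kept cells that were members, 8.40%, was 9.89% with a limit of 3 per 10000, 6.46% with a limit of 10, 6.46% with no WLS UMI, 9.48% with fewer than 6 WLS UMIs, 9.42% with fewer than 1 WLS UMI per 10000, 8.90% without the lower mitochondrial limit, and 7.63, 7.76 and 5.21% with ANXA1, TFPI2 or CTGF left out of the rule. Against the cells below the limit, the counts of higher and lower genes (649 and 1067) were 355 and 678 at matched depth, 5739 and 148 by UMIs per cell with no correction for depth, 983 and 2329 from a mean of 2 CPM, 4269 and 4286 with no filter, 1212 and 2362 at 1.5-fold and 260 and 222 at 4-fold. By UMIs per cell the median log2 ratio of all genes was 1.12, against -0.16 after thinning, and FZD3 turned to a ratio of 1.01. Of 118 named genes, 96 left the counting interval of their ratio at matched depth and 59 with CTGF left out of the rule, with none of those past 2-fold turning direction. Of 71 named genes against the cells with 3 or more WLS UMIs, 23 and 25 did. With depth bins of 20 or more cells on each side, chosen after seeing the data, 396 genes were higher and 799 lower. Against the cells with 3 or more WLS UMIs, the counts (191 and 291) were 106 and 228 at matched depth, 79 higher in bins of 20 or more cells, 124 higher with no thinning, 56 and 484 by UMIs per cell, 610 and 768 from a mean of 2 CPM, 1044 and 1405 with no filter, 651 and 720 at 1.5-fold, 16 and 57 at 4-fold, and 106 higher without CTGF in the rule. The counts stayed within 1.5 times with other thinning depths, another random draw, the highest 8% of Scrublet scores removed, and ANXA1 or TFPI2 left out. Filters, folds and bins change the number of genes by construction, and the cause of the other shifts was not tested. No paired analysis was possible because there is 1 library, and no replicate could be left out. Thinning to 5000 UMIs per cell limits what can be read for genes near 1 CPM, such as HIC1 in the members.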
